A study of Mus musculus with 12 samples.

Results

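The nuclear and structural noncoding RNAs described here are 9 of the 40202 gene rows measured in mouse retina, taken by gene symbol. The 5 long nuclear RNAs are Malat1, Neat1, Miat, Meg3 and Snhg11. The other 4, Rn7sk, Rpph1, Rmrp and Terc, are small structural RNAs whose mature forms carry no poly(A) tail. The 12 retina libraries came from C57BL/6J mice, with 3 libraries in each of 4 groups: wild-type (WT) retina given vehicle, WT retina given cp-asiNRL, retina with laser-induced choroidal neovascularisation (CNV) given vehicle, and CNV retina given cp-asiNRL. The vehicle was 0.5X PBS, and cp-asiNRL, an asymmetric, cell-penetrating siRNA aimed at the rod transcription factor gene Nrl, was injected into the vitreous as 1 µl of 6 µg/µl. No genetic allele separates the groups, so "WT" and "CNV" differ in the laser lesion, which models the leaky vessels of wet macular degeneration. The number of animals behind a library and the time of tissue collection are not in the labels. Every p-value below thus concerns only these libraries, whose spread the test estimates partly from all genes together.

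Long nuclear RNAs act in the nucleus as RNA. Malat1 gathers in nuclear speckles, where splicing factors are stored, and Neat1 is the scaffold around which paraspeckles assemble. Miat, also called Gomafu, is a neuronal nuclear RNA first described in retina, Meg3 is transcribed from the maternal copy of an imprinted locus, and Snhg11 is a neuronal host gene of small nucleolar RNAs. Rn7sk is the 7SK RNA, which holds the transcription elongation factor P-TEFb inactive, Rpph1 is the catalytic RNA of RNase P, Rmrp is the RNA of the related enzyme RNase MRP, and Terc is the template RNA of telomerase. The libraries were made with a kit that selects polyadenylated RNA, and the untailed RNAs, mature Malat1 and the long Neat1 isoform carry no tail for such a kit to bind. Background knowledge links the groups: RNase P cuts the ends of Malat1 and of the long Neat1 isoform in front of a transfer-RNA-like fold, and the cut end is kept by a triple helix in which an A-rich tract pairs with upstream U-rich motifs.

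The transcript ends bear on how such RNAs can be captured by oligo(dT), so they are shown 5′ to 3′, with runs of at least 4 A in capitals (GENCODE M21 transcripts, GRCm38, written as DNA). The Malat1 window is the 60 bases before the small RNA Mascrna, at transcript bases 6632 to 6691, and the Mascrna line is the 58 bases that follow. The other lines are the last 60 bases of the longest annotated transcript.
Malat1: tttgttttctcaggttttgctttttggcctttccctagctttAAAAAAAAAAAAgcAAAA
Mascrna: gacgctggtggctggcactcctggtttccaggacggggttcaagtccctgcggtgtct
Neat1: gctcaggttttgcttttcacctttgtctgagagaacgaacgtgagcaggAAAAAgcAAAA
Rn7sk: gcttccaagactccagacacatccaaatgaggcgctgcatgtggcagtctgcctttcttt
Rpph1: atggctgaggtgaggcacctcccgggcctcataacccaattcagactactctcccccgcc
Rmrp: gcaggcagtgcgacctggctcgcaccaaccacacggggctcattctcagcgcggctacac
Terc: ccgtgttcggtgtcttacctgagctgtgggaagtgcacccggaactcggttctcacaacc

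The Malat1 and Neat1 windows share their last 11 bases, and they also share a run of 16 bases further upstream, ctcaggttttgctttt, which is rich in T. None of the 4 untailed RNAs has a run of 4 A in its last 60 bases. Over the longest annotated transcript of each gene the longest A run was 16 bases in Meg3, 12 in Malat1, 8 in Snhg11, 7 in Neat1, 5 in Terc and 4 in Miat. It was 3 bases in Rn7sk and in Rmrp and 2 in Rpph1. Each of the 5 long RNAs thus holds a longer A run than any of the 3 RNA polymerase III products, but untailed Terc exceeds Miat. The long transcripts have 5864 to 20771 bases and the untailed ones 281 to 423, so run length is not separated from transcript length. The part of these runs in capture was not tested.

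Each library held between 51298466 and 69394486 reads in genes. Levels are given as CPM, the usual read count scaled to library size, here with trimmed-mean factors. Nrl, the targeted gene, was at 505 to 565 CPM in WT vehicle and 400 to 465 CPM in WT cp-asiNRL retina, and at 421 to 525 CPM in CNV vehicle retina. Within CNV cp-asiNRL it was at 324 and 264 CPM in replicates 1 and 3 and at 482 CPM in the CNV library labelled cp-asiNRL replicate 2, inside the vehicle range. That library also stood apart for several RNAs below, so results are given with and without it, a choice made after its values were seen. Rod markers, which define most retinal cells, summed to 9333 to 18860 CPM, and all 6 of them were at 1 CPM or more in each group. Fewer cells of a type and less RNA per cell cannot be told apart in such bulk samples.

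These 9 RNAs together held 1.37% to 1.66% of the reads of a library, and Malat1 alone held most of that. Malat1 was at 9376 to 10610 CPM and ranked 1st or 2nd of all rows by CPM in every library, and Rn7sk followed among the members at 2437 to 5214 CPM. Per kilobase of gene span the order of the mean levels over all 12 libraries was Rn7sk (11601 CPM per kb), Rpph1 (1813), Malat1 (1438), Rmrp (827), Snhg11 (20.7), Meg3 (8.82), Miat (1.495), Neat1 (1.18) and Terc (0.200). The ranges over libraries overlapped between Rpph1 and Malat1, between Malat1 and Rmrp, and between Miat and Neat1, so those neighbours were not separated. The span counts introns, so the per-kilobase levels of the spliced RNAs Meg3, Snhg11 and Miat are understated against unspliced Malat1 and Neat1.

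**Figure D1:**
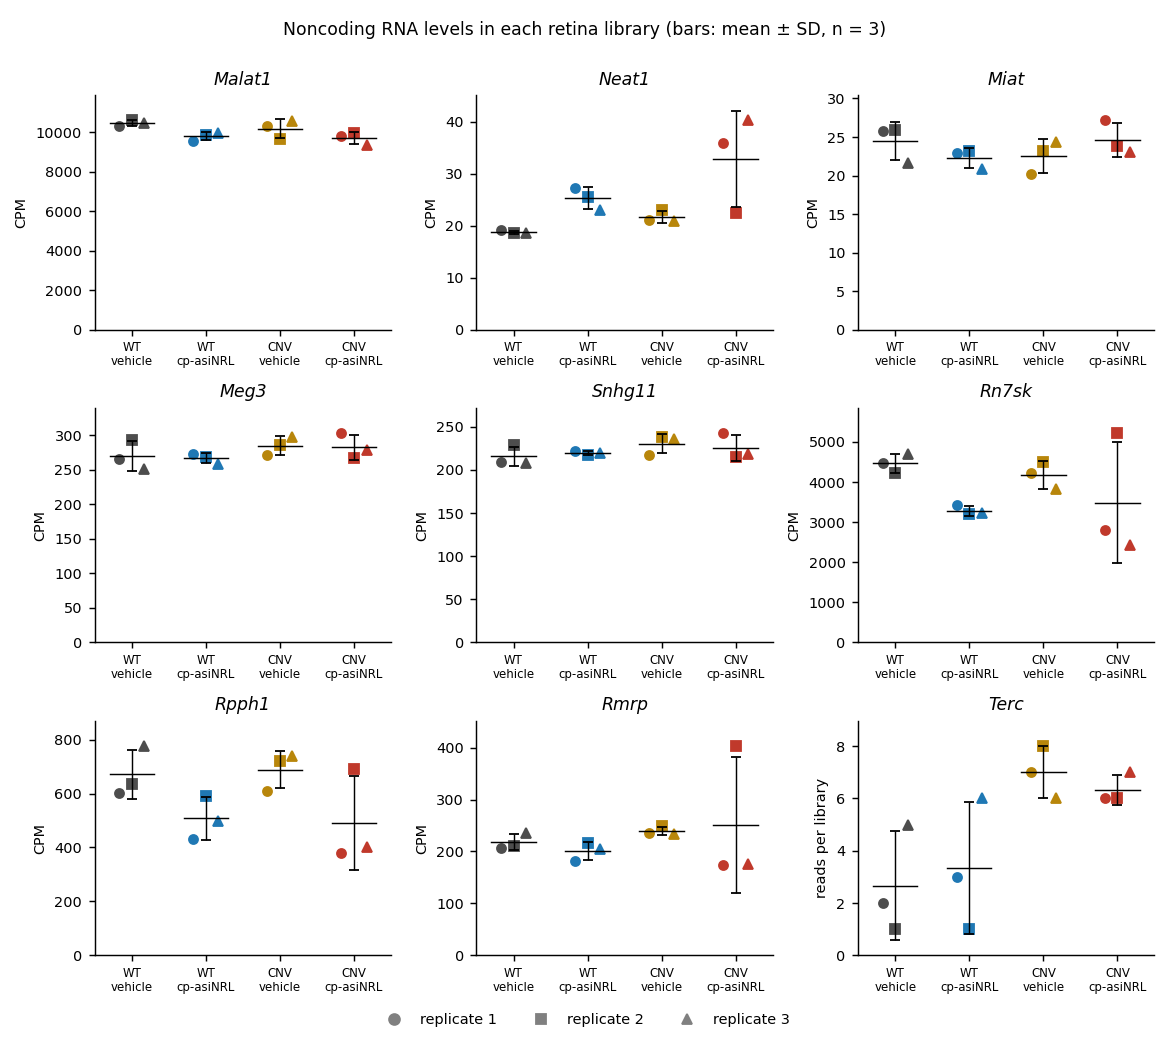
Level of each of the 9 noncoding RNAs in every library, in CPM (Terc in reads per library), by group. Symbols mark replicates, lines the group mean and bars the SD (n = 3). Neat1 is above the WT vehicle range in all 3 WT cp-asiNRL libraries, while Rn7sk and Rpph1 are below it; CNV cp-asiNRL replicate 2 (square) lies apart from the other 2 libraries of its group for Neat1, Rn7sk, Rpph1 and Rmrp.

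Neat1, the paraspeckle scaffold, had a higher mean level after cp-asiNRL in both retina states. Its level was 19.1, 18.6 and 18.5 CPM in WT vehicle and 27.2, 25.5 and 23.0 CPM in WT cp-asiNRL retina. It was 21.04, 22.9 and 20.9 CPM in CNV vehicle and 35.8, 22.5 and 40.2 CPM in CNV cp-asiNRL retina. The WT groups did not overlap, and in CNV retina replicate 2 alone fell back into the vehicle range. The ratio of group means was 1.35 in WT and 1.52 in CNV retina.

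Averaged over both retina states, Neat1 rose after cp-asiNRL by a log2 change of 0.48 (SE 0.10, limma adjusted p = 0.0331). It was the only one of the 8 members tested that was called, against 2.51% of all 25619 genes tested. Within WT retina the change was 0.41 (SE 0.14, limma adjusted p = 0.191) and within CNV retina 0.54 (SE 0.14, limma adjusted p = 0.201). No member was called in either state alone, where limma called 0.156% and 0.0546% of all genes, although 3 members in WT and 2 in CNV retina had an unadjusted p under 0.05. The call of the shared change was lost when any of 9 of the 12 libraries was left out, with adjusted p up to 0.0975, while the log2 change stayed between 0.40 and 0.60. It was kept without CNV vehicle replicate 1 (0.0446) or 2 (0.0454) and without CNV cp-asiNRL replicate 2 (limma adjusted p = 5.48e-06).

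Without the CNV library labelled cp-asiNRL replicate 2, the Neat1 change was 0.41 in WT (SE 0.07, limma adjusted p = 0.00649) and 0.79 in CNV retina (SE 0.07, limma adjusted p = 3.40e-05). That fit called 3.18% of all genes in WT retina, 17.2% in CNV retina and 22.6% for the shared change, so the background rose as well. The difference between the Neat1 changes in the 2 retina states was 0.13 on the log2 scale with all libraries (SE 0.20, limma adjusted p = 0.912) and 0.38 without that library (SE 0.10, limma adjusted p = 0.125).

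**Figure D2:**
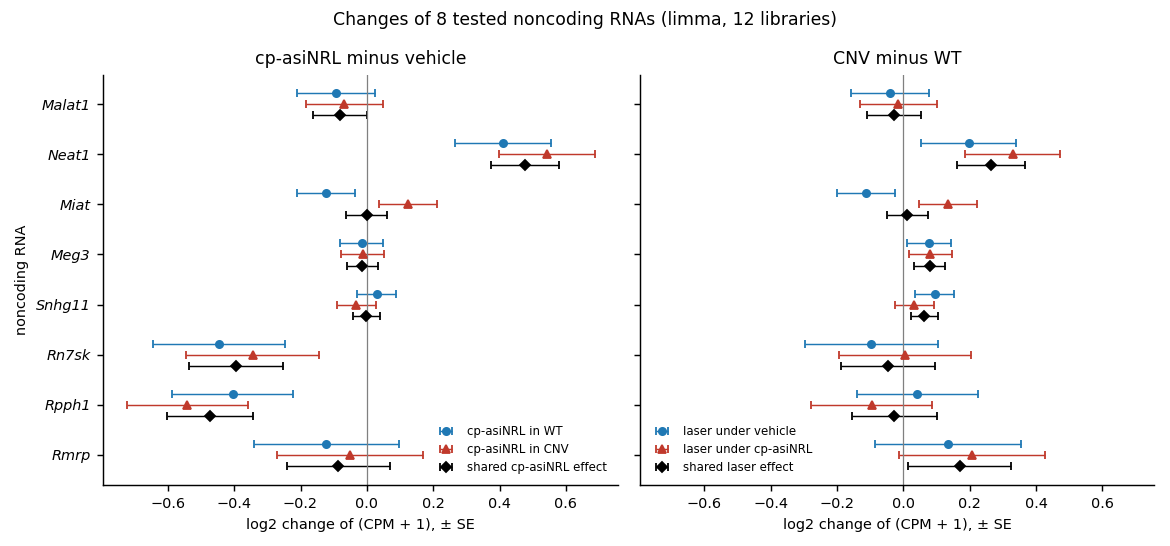
Log2 change of CPM + 1 with its SE for the 8 noncoding RNAs tested, from limma over 12 libraries. The left panel gives cp-asiNRL minus vehicle and the right panel CNV minus WT, with circles and triangles for the single comparisons and diamonds for their mean. Neat1 lies highest in the left panel (0.48 for the mean) and Rpph1 lowest (-0.47).

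The mean level of Neat1 was also higher in CNV than in WT retina. Under vehicle the 3 CNV libraries lay above the 3 WT libraries, with a log2 change of 0.20 (SE 0.14, limma adjusted p = 0.724). Under cp-asiNRL the change was 0.33 (SE 0.14, limma adjusted p = 0.264), with replicate 2 of CNV cp-asiNRL retina below all 3 WT cp-asiNRL libraries. Averaged over both injections it was 0.26 (SE 0.10, limma adjusted p = 0.202). No member was called in the laser comparisons, where limma called 0.0% of genes under vehicle (2029 at an unadjusted p under 0.05), 0.0% under cp-asiNRL (4424) and 0.0039% for the mean of both. limma voom called no gene under vehicle or under cp-asiNRL either, and with sample quality weights it called 16 higher and 7 lower under vehicle and 2493 higher and 1917 lower under cp-asiNRL. With only the libraries of the groups compared, limma called 128 higher and 30 lower under vehicle and none under cp-asiNRL, no member among them.

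Without the CNV library labelled cp-asiNRL replicate 2, limma called 0.266% of genes for the laser under vehicle, 17.9% under cp-asiNRL and 17.1% for their mean. Neat1 then had a log2 change of 0.57 under cp-asiNRL (SE 0.07, limma adjusted p = 0.000245) and 0.39 for the mean (SE 0.05, limma adjusted p = 0.000179). It was 0.20 under vehicle (SE 0.07, limma adjusted p = 0.241), where no member was called. The 7SK RNA Rn7sk was called lower in CNV than in WT retina, at -0.33 under cp-asiNRL (SE 0.10, limma adjusted p = 0.0363) and -0.21 for the mean (SE 0.07, limma adjusted p = 0.0431). Rpph1, the RNase P RNA, was called lower under cp-asiNRL, at -0.37 (SE 0.12, limma adjusted p = 0.0418). The comparisons of this paragraph and of the preceding ones share libraries (WT vehicle enters both the injection and the laser comparison), so their values are given side by side only.

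Within CNV cp-asiNRL retina, replicate 2, the library with the least Neat1, had the lowest marker sums of microglia and macrophages and of endothelium. It had the highest sums of rods, of the other retinal neurons and of Muller glia. The 7 microglia and macrophage markers were all measured, 5 to 6 of them at 1 CPM or more per group. They summed to 30.03 to 32.8 CPM in WT vehicle, 31.9 to 45.2 in WT cp-asiNRL, 38.8 to 62.1 in CNV vehicle and 38.8 to 77.8 in CNV cp-asiNRL retina. Within CNV cp-asiNRL the library with the lowest Neat1, replicate 2, had 38.8 CPM of these markers, and the others had 68.6 and 77.8 CPM. In WT retina the marker sums of the injection groups overlapped (vehicle up to 32.8 CPM and cp-asiNRL from 31.9 CPM), while the Neat1 levels did not. Within WT cp-asiNRL the sums ran in the order of Neat1, at 45.2, 33.0 and 31.9 CPM in replicates 1 to 3. In CNV vehicle retina replicate 2 had both the most Neat1 and the highest sum (62.1 CPM). The orders differed in WT vehicle retina (30.9, 32.8 and 30.03 CPM) and between replicates 1 and 3 of CNV vehicle retina. Summed over 5 endothelial markers, all at 1 CPM or more in each group, the level was 125.1 to 132.5 CPM in WT vehicle, 106.7 to 130.5 in WT cp-asiNRL, 125.4 to 163.0 in CNV vehicle and 138.2 to 177.2 in CNV cp-asiNRL retina, where replicate 2 was again the lowest (138.2 CPM against 177.2 and 176.5). The rod marker sum ran the other way in CNV cp-asiNRL retina, at 17080 CPM in replicate 2 and 11600 and 9333 CPM in replicates 1 and 3. Replicate 2 was likewise highest for cone (589 CPM against 489 and 479), bipolar (2400 against 2182 and 2116) and Muller glia markers (1072 against 973 and 951). The same held for amacrine, horizontal and ganglion markers. None of the 7 microglial, 5 endothelial or 6 rod markers was called for the shared cp-asiNRL or laser change. Of 5 cone markers 1 was called lower for the shared cp-asiNRL change. The part of cell make-up in the Neat1 change was not tested.

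**Figure D3:**
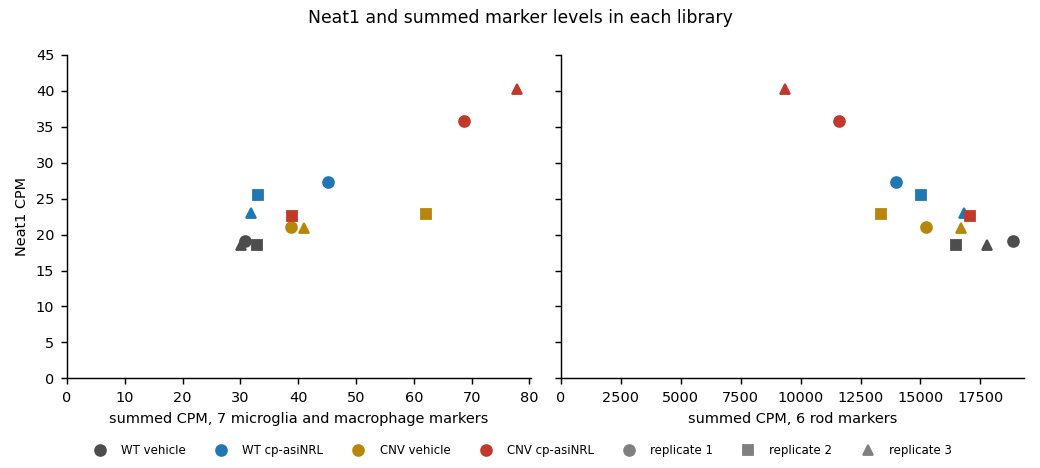
Neat1 CPM in each library against the summed CPM of 7 microglia and macrophage markers (left) and 6 rod markers (right). Colours mark groups and symbols replicates. The 2 libraries with the most Neat1 (35.8 and 40.2 CPM, CNV cp-asiNRL replicates 1 and 3) have the highest microglial sums and the lowest rod sums.

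The genes whose levels varied most like Neat1 around the group means, over 12 libraries and among 11351 named genes, were Cav1 (Pearson r = 0.98), which encodes the membrane protein caveolin-1, and the interferon-induced GTPase genes Gvin1 (r = 0.97) and Gbp6 (r = 0.97). Without the CNV library labelled cp-asiNRL replicate 2 these r values were 0.93, 0.89 and 0.89. All points share their libraries, and the r values are a description of these libraries. Neat1 spans 19:5874736-5895508 on the minus strand (GRCm39, 20773 bp), and its short tailed and long tailless isoforms start together, so their reads cannot be told apart in a gene total. Frmd8os lies 470 bp away on the plus strand and took 42 to 100 reads per library.

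Malat1, the speckle RNA next to Neat1 on chromosome 19 (5845718 to 5852700, minus strand, GRCm39), was the steadiest member. Its level was 10328, 10610 and 10464 CPM in WT vehicle and 9585, 9881 and 9975 CPM in WT cp-asiNRL retina. In CNV retina it was 10337, 9653 and 10568 CPM with vehicle and 9795, 9957 and 9376 CPM with cp-asiNRL. The WT groups did not overlap, at a difference of means of -6.24%, and the CNV groups did. The log2 change was -0.09 in WT (SE 0.12, limma adjusted p = 0.746) and -0.07 in CNV retina (SE 0.12, limma adjusted p = 0.792). limma draws each SE toward a trend over all genes, so these are not the spread of Malat1 alone. With sample quality weights Malat1 was called lower for the shared cp-asiNRL change, at -0.087 (SE 0.029, limma voom adjusted p = 0.0399). That fit called 23.5% of all genes. Among 13539 genes averaging at least 5 CPM, 5.48% had a smaller SD within groups than Malat1 and 97.7% a smaller one than Neat1.

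Set against its neighbour within each library, Neat1 was lowest in WT vehicle retina. Per 1000 Malat1 reads there were 1.75 to 1.85 Neat1 reads in WT vehicle, 2.31 to 2.84 in WT cp-asiNRL, 1.98 to 2.37 in CNV vehicle and 2.26 to 4.29 in CNV cp-asiNRL retina. The WT vehicle libraries lay below those of the other 3 groups, which overlapped with one another, and the ratio was not tested. Mascrna, the tRNA-like fragment cut from the Malat1 end, had 65 to 115 reads per library on its own row, at a mean of 1.499 CPM in WT vehicle and 1.247 CPM in WT cp-asiNRL retina. Its 58 bases lie inside Malat1, so these reads may come from uncut Malat1, and the 2 rows cannot be told apart. Its log2 change was -0.15 for the shared cp-asiNRL effect (SE 0.06, limma adjusted p = 0.189).

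Miat, Meg3 and Snhg11 were called in none of the comparisons, with all libraries or under any alternative. Miat was at 25.8, 25.9 and 21.7 CPM in WT vehicle, 23.0, 23.2 and 20.8 in WT cp-asiNRL, 20.1, 23.2 and 24.4 in CNV vehicle and 27.2, 23.8 and 23.0 in CNV cp-asiNRL retina. All pairs of groups overlapped. Its change after cp-asiNRL was -0.12 in WT and 0.12 in CNV retina on the log2 scale (SE 0.09 each), and the difference between them was 0.25 (SE 0.12, limma adjusted p = 0.779). No member was called for that difference, with 0.0% of all genes called by limma (1593 at an unadjusted p under 0.05) and none by limma voom with or without sample quality weights. Without the CNV library labelled cp-asiNRL replicate 2, limma called 0.0% of genes for the difference as well (3961 at an unadjusted p under 0.05).

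Meg3, the imprinted RNA, was at 251 to 293 CPM in WT vehicle, 258 to 273 in WT cp-asiNRL, 271 to 297 in CNV vehicle and 266 to 303 in CNV cp-asiNRL retina. Its shared cp-asiNRL change was -0.01 (SE 0.05, limma adjusted p = 0.874) and its shared laser change 0.08 (SE 0.05, limma adjusted p = 0.369). Rtl1, an imprinted gene on the other strand, overlaps 22.4% of the Meg3 span, and the counting is not stated to use strand, so their reads are uncertain. Snhg11 was at 209 to 229, 218 to 222, 218 to 238 and 215 to 243 CPM in the same order of groups, with a shared cp-asiNRL change of 0.00 (SE 0.04, limma adjusted p = 0.986) and a shared laser change of 0.06 (SE 0.04, limma adjusted p = 0.423). Both RNAs varied together from library to library, with 0.780 to 0.853 Snhg11 reads per Meg3 read in all 12.

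The promoter windows of the long RNAs were searched for 4 short motifs on both strands in the RefSeq windows around gene starts (GRCm38). A window was on hand for 4 of the 9 members, Malat1, Miat, Meg3 (with a pair of starts) and Snhg11. TATAA, the core of the TATA box, was in 1 of these 5 windows (Meg3) and in 24.9% of all 32851 windows, and CCAAT was in 1 (Meg3) and in 37.4%. GGGCGG was in 1 (Miat) and in 35.7%, and ATTTGCAT in none and in 1.74%. No motif contains another, and a match describes letters in a window only.

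The RNA polymerase III products Rn7sk and Rpph1 were lower after cp-asiNRL in WT retina and in 2 of 3 libraries of CNV retina. Rn7sk, the 7SK RNA, was at 4471, 4221 and 4707 CPM in WT vehicle and 3424, 3192 and 3215 CPM in WT cp-asiNRL retina. It was at 4218, 4504 and 3821 CPM in CNV vehicle and 2793, 5214 and 2437 CPM in CNV cp-asiNRL retina. The WT groups did not overlap, and in CNV retina replicate 2 lay above all 3 vehicle libraries while the others lay below them. The log2 change was -0.45 in WT (SE 0.20, limma adjusted p = 0.301), -0.34 in CNV (SE 0.20, limma adjusted p = 0.398) and -0.39 for their mean (SE 0.14, limma adjusted p = 0.116).

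Rpph1, the RNase P RNA, was at 602, 635 and 775 CPM in WT vehicle and 432, 592 and 499 CPM in WT cp-asiNRL retina. It was at 608, 720 and 738 CPM in CNV vehicle and 378, 690 and 402 CPM in CNV cp-asiNRL retina. As for Rn7sk, the WT groups did not overlap, and replicate 2 of CNV cp-asiNRL was the library inside the vehicle range. The log2 change was -0.40 in WT (SE 0.18, limma adjusted p = 0.303), -0.54 in CNV (SE 0.18, limma adjusted p = 0.239) and -0.47 for their mean (SE 0.13, limma adjusted p = 0.0600).

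Rmrp, the RNase MRP RNA, showed the outlying library most plainly. It was at 207, 211 and 236 CPM in WT vehicle, 181, 216 and 204 in WT cp-asiNRL, 237, 248 and 233 in CNV vehicle and 173, 403 and 177 in CNV cp-asiNRL retina. The WT groups overlapped. In CNV retina 2 treated libraries lay below all vehicle libraries and replicate 2 lay far above them. The log2 change after cp-asiNRL was -0.05 in CNV retina (SE 0.22, limma adjusted p = 0.926), and the shared change was -0.09 (SE 0.16, limma adjusted p = 0.766).

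Removal of the CNV library labelled cp-asiNRL replicate 2 brought calls for all 3 of these RNAs. In the shared cp-asiNRL change Rn7sk fell by 0.56 (SE 0.07, limma adjusted p = 0.000123), Rpph1 fell by 0.61 (SE 0.08, limma adjusted p = 0.000195) and Rmrp fell by 0.29 (SE 0.05, limma adjusted p = 0.000964). With Neat1 that made 4 of 8 members called, against the 22.6% of all genes called in that fit. In CNV retina alone Rn7sk fell by 0.68 (SE 0.10, limma adjusted p = 0.000847), Rpph1 fell by 0.82 (SE 0.12, limma adjusted p = 0.000703) and Rmrp fell by 0.45 (SE 0.07, limma adjusted p = 0.00106), against 17.2% of genes called. In WT retina alone Rn7sk (-0.45, adjusted p = 0.0183) and Rpph1 (-0.40, adjusted p = 0.0488) passed limma with Neat1, and both also passed when only the 6 WT libraries were fitted (adjusted p = 0.000608 and 0.00942), a fit that called 8.84% of the 24321 genes tested. The outlying library was chosen by its values, so its removal is no independent test.

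**Figure D4:**
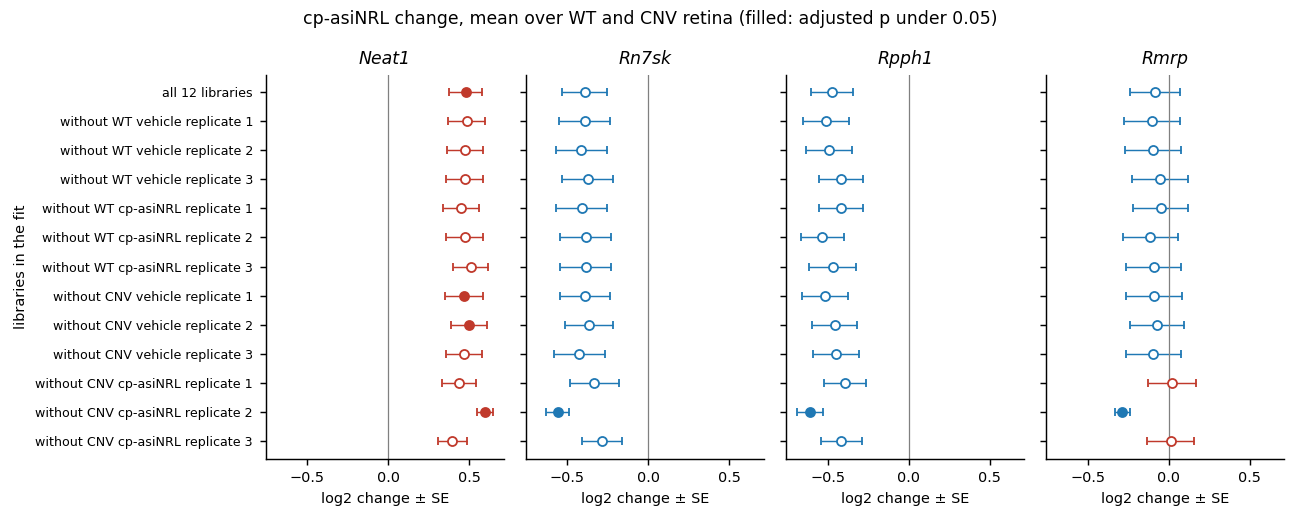
Log2 change after cp-asiNRL, averaged over WT and CNV retina, with its SE for 4 noncoding RNAs, with all 12 libraries and with each left out in turn. Filled symbols have a limma adjusted p under 0.05, red lies above 0 and blue below. Neat1 ranges from 0.40 to 0.60, and Rn7sk, Rpph1 and Rmrp are called only without CNV cp-asiNRL replicate 2.

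Neat1, Malat1, Rn7sk and Rpph1 were the 4 members of 9 whose WT groups did not overlap after cp-asiNRL, 1 higher and 3 lower, where 27.3% of all genes tested did not overlap. In CNV retina no member separated the injection groups, against 13.0% of genes. Between CNV and WT retina the groups of 2 members, Neat1 and Terc, did not overlap under vehicle, against 15.6% of genes tested, and none under cp-asiNRL, against 17.5%. Terc is not among the genes tested, and its vehicle groups lay apart only at 5 reads at most in WT and 6 at least in CNV libraries.

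The untailed RNAs took a smaller share of reads after cp-asiNRL in WT retina. Together Rn7sk, Rpph1, Rmrp and Terc held 0.530% ± 0.0287 of reads in WT vehicle and 0.397% ± 0.00904 in WT cp-asiNRL retina (SD, n = 3). In CNV retina they held 0.507% ± 0.0468 with vehicle and 0.429% ± 0.169 with cp-asiNRL, where replicates 1 and 3 were at 0.345% and 0.318% and replicate 2 at 0.624%. The 5 long RNAs held 1.02% to 1.11% of reads in all 12 libraries. Their share was lower after cp-asiNRL in WT retina too, at 1.02% to 1.04% against 1.07% to 1.11%, groups that did not overlap. In CNV retina it was 1.04% to 1.11% with vehicle and 1.04% to 1.07% with cp-asiNRL. Other genes under 1 kb also had a median below 0 after cp-asiNRL. For 87 of them averaging at least 5 CPM, with the untailed members and the 7SL rows left out, the median log2 change was -0.23 in WT and -0.16 in CNV retina, while the median of all genes tested was 0.00. With those rows kept (92 genes) the CNV median was -0.17, and it moved to -0.26 when replicate 2 of CNV cp-asiNRL was left out and to -0.10 when replicate 1 was. All the other genes under 1 kb held 0.381% to 0.408% of reads in WT vehicle and 0.338% to 0.375% in WT cp-asiNRL retina, and 0.389% in CNV cp-asiNRL replicate 2 against 0.329% and 0.363% in replicates 1 and 3. The part of RNA capture or gene length in the change of the untailed RNAs was not tested.

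**Figure D5:**
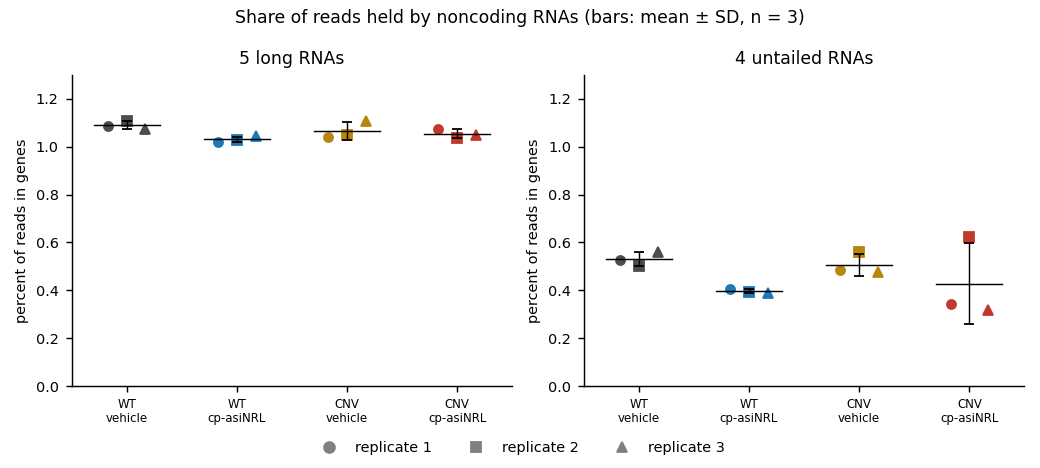
Share of reads in genes held by the 5 long RNAs (left) and the 4 untailed RNAs (right) in each library, on equal axes. Lines are group means and bars the SD (n = 3). Both sets are lower in all 3 WT cp-asiNRL libraries than in WT vehicle libraries. The long RNAs are at 1.02% to 1.04% against 1.07% to 1.11%, and the untailed RNAs at 0.389% to 0.407% against 0.502% to 0.559%.

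Rpph1 reads per Rn7sk read were 0.150 ± 0.0150 in WT vehicle, 0.156 ± 0.0296 in WT cp-asiNRL, 0.166 ± 0.0249 in CNV vehicle and 0.144 ± 0.0180 in CNV cp-asiNRL retina (SD, n = 3). The 4 groups overlapped in this proportion, and replicate 2 of CNV cp-asiNRL, at 0.132, lay beside replicate 1, at 0.135. Rmrp reads per Rn7sk read were 0.0463 to 0.0502 in WT vehicle and 0.0530 to 0.0677 in WT cp-asiNRL retina. In CNV retina they were 0.0551 to 0.0611 with vehicle and 0.0619 to 0.0773 with cp-asiNRL. The injection groups did not overlap in either retina state, and the ratio was not tested. The 7SL rows Rn7s1 and Rn7s2, near-identical copies of the signal recognition particle RNA whose reads may be split between them, varied most like Rmrp (r = 0.97 each, and 0.84 each without the CNV library labelled cp-asiNRL replicate 2). Rn7s1 had 0.850 to 1.10 reads per Rn7sk read in all 12 libraries. The 7SK gene has related copies elsewhere in the genome, so the reads assigned to Rn7sk are uncertain in the same way. The loci of Rn7sk, Rpph1 and Rmrp are 9:78082584-78082915, 14:51044904-51045228 and 4:43492785-43493059, all on the minus strand (GRCm39).

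Terc, the telomerase RNA (3:96321753-96322149, minus strand, GRCm39), was at the edge of detection. It had 2, 1 and 5 reads in WT vehicle, 3, 1 and 6 in WT cp-asiNRL, 7, 8 and 6 in CNV vehicle and 6, 6 and 7 in CNV cp-asiNRL retina. All 6 CNV libraries had 6 or more reads, and 1 of the 6 WT libraries did. Pooled over 6 libraries each, that was 18 reads in WT and 40 in CNV retina, or 0.0535 CPM without scaling factors (95% exact Poisson interval 0.0317 to 0.0846) and 0.1055 CPM (0.0754 to 0.144), intervals that cover counting error only. Terc did not pass the filter on low values. With no filter its shared laser change was 0.07 on the log2(CPM + 1) scale (SE 0.02, limma adjusted p = 0.263), a scale that shrinks changes of so low a gene.

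Few genes for protein partners of these RNAs were called, and calls were few among all genes too. For the shared cp-asiNRL change 2.51% of all genes tested were called, and 1.79% were called lower. Of 15 paraspeckle and speckle protein genes none was called for the shared cp-asiNRL change, with Nono, which binds Neat1 in paraspeckles, at -0.14 (SE 0.04, limma adjusted p = 0.0551). Of 7 genes of the 7SK particle and P-TEFb none was called, with Hexim2, a P-TEFb inhibitor held by 7SK, at -0.19 (SE 0.05, limma adjusted p = 0.0554). Of 11 RNase P and MRP protein genes 1 was called lower, Pop4 at -0.19 (SE 0.05, limma adjusted p = 0.0492), and Pop7 was at -0.25 (SE 0.07, limma adjusted p = 0.0646). The Pop4 call was lost in 11 of 12 fits with a library left out, all but the one without CNV cp-asiNRL replicate 2, and in 6 of 8 other settings. None of 8 telomerase protein genes and none of 23 genes of the polymerase III machinery was called. The medians over these lists lay between -0.07 and -0.04, against 0.00 over all genes. Without the CNV library labelled cp-asiNRL replicate 2, the counts called lower were 6, 1, 2, 3 and 3 in the order given. None was called higher. Over all genes that fit called 3156 of 25560 lower and 2621 higher.

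Other RNAs of the same kinds gave a wider view of the cp-asiNRL comparison. Of 139 other small structural RNAs tested 3 were called lower (2.16%) and none higher, near the 1.79% of all genes called lower. They included Scarna13, a Cajal body RNA, at -0.43 (SE 0.07, limma adjusted p = 0.00904) and Bc1, a brain cytoplasmic RNA made by polymerase III, at -0.61 (SE 0.11, limma adjusted p = 0.0179). Of 64 replication-dependent histone genes, whose messages end in a stem-loop in place of a tail, 15 were called lower (23.4%) and none higher, with a median of -0.14. H4c14 was at -0.52 (SE 0.06, limma adjusted p = 0.00188) and H2bc18 at -0.45 (SE 0.07, limma adjusted p = 0.0123). H4c14 and several other H4 rows called had like means, at 6.02 to 6.37 CPM in WT vehicle and 3.93 to 4.32 CPM in WT cp-asiNRL retina. Whether such rows share reads was not tested, so the histone calls may not all be separate. Of 40 other long noncoding RNAs 2 were called lower, Snhg10 (-0.42, limma adjusted p = 0.00928) and Snhg1 (-0.26, limma adjusted p = 0.0397). The single one called higher was Gm2694 (0.24, limma adjusted p = 0.0434). Snhg10 and Scarna13 had like means, at 22.5 and 19.3 CPM in WT vehicle and 16.1 and 13.8 CPM in WT cp-asiNRL retina. In CNV retina they were at 19.9 and 17.2 CPM with vehicle and 15.2 and 12.9 CPM with cp-asiNRL. Whether the 2 rows share reads was not tested, so their calls may not be separate. These counts depended on single libraries: with each left out in turn the histone genes called lower numbered 2 to 29 and the small structural RNAs 1 to 12. The other long RNAs called lower numbered 1 to 11 and those called higher 0 to 3, and the highest of each count came without CNV cp-asiNRL replicate 2. Over all genes those called lower numbered 34 to 3156 in the same fits, also highest without that library. That fit called 3156 of 25560 genes lower and 2621 higher, so the background of these counts rose as well. The Gm2694 and Snhg1 calls were each lost in 10 of the 12 such fits. None of the 4 genes tested from the Meg3 imprinted locus was called in either direction. There Dio3, a thyroid hormone deiodinase gene, was at -0.18 (SE 0.06, limma adjusted p = 0.0852). Its group means were only 0.0884 to 0.264 CPM, a level at which the log2(CPM + 1) scale shrinks changes.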

How the data were processed

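Retina libraries from 12 samples were compared, 3 in each of 4 groups. The deposited signal values are headed FPKM per the file headers. Per the submitters' processing notes the authors aligned reads with HISAT2 2.1.0 and counted them with featureCounts 1.6.0 on mm10, although its deposited coordinates match GRCm39, the build named with every position here. All 482424 deposited signal values, multiplied by the length column, came out whole to within 1e-06, so the signal is reads per base of genomic span, introns included, with no division by library total. Reads recovered in this way were scaled to CPM by trimmed means, with 30% of ratios and 5% of levels trimmed. A filter asked for the CPM of 10 reads (in a library of median size) in 3 or more libraries and for 15 reads summed over all, and 25619 genes passed, 8 of the 9 members among them.

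The test was limma (version 3.58.1, trend option, R 4.3.3) on log2(CPM + 1), fitted to 4 group means over the 12 libraries, with Benjamini-Hochberg adjustment over all genes at 0.05. The shared changes are means of the 2 differences, and log2 changes understate low genes. The fit was checked on simulated data with the same spread in every library. No simulated library stood apart, so the check does not cover a library such as CNV cp-asiNRL replicate 2. No library copied another of its group (chi-square per gene from 4.00 to 46.2).

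The members, the gene lists and the marker lists were chosen with earlier results of these data known. From each list the text names up to 2 genes with the smallest p, and Gm2694 because it is the single call of its kind. Likeness is Pearson's r of log2(CPM + 1) after removal of the group means. Depth sets the precision of Terc above all. Alternatives covered scaling, filter, pseudocount, gene span, limma voom, the replicate block, the libraries of a comparison alone, and leaving out each library.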

Additional observations from a re-analysis of the deposited data

How the results depend on the processing

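The number of members called was the same as reported in all comparisons with library totals, median-of-ratios scaling, a pseudocount of 0.5, limma voom and the trend with gene span removed. With sample quality weights it was 2 for cp-asiNRL in WT (7.45% of all genes called), 3 in CNV (11.6%), 4 for the shared cp-asiNRL change (23.5%), 1 for the laser under cp-asiNRL (17.2%) and 1 for the shared laser change (13.6%). With only the libraries compared it was 3 for cp-asiNRL in WT (8.84%). For the shared cp-asiNRL change it was 0 with no filter (Neat1 adjusted p = 0.0859) and 0 with the replicate block (adjusted p = 0.0682). With 1 library left out it ranged from 0 to 3 for cp-asiNRL in WT, 0 to 4 in CNV, 0 to 3 for the laser under cp-asiNRL, 0 to 4 for the shared cp-asiNRL and 0 to 2 for the shared laser change, each highest without CNV cp-asiNRL replicate 2. It stayed at 0 for the laser under vehicle and for the difference between the cp-asiNRL changes.

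Of 1152 member changes under an alternative, 1112 kept direction and side of the threshold, 28 passed it and 11 lost it, where 80 sign changes of values within 1 SE of 0 were not counted as a change of direction. The shared laser change of Rmrp turned from 0.17 to -0.029 without CNV cp-asiNRL replicate 2, against at most 0.275 with another library left out; the cause was not tested. Scaling by library totals moved the shared cp-asiNRL calls over all genes from 185 higher and 459 lower to 222 and 208. All-gene calls for that change ranged from 58 to 5777 with a library left out and from 69 (replicate block) to 6014 (quality weights) otherwise.

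Deviations of same-numbered libraries from their group means had a correlation over 0.1 in 4 of 18 pairs (-0.523 to 0.305). Among pairs of different number it was 13 of 36 (-0.552 to 0.492). With 3 libraries per group these deviations are tied to one another, so they cannot decide whether the numbers pair the samples. The main fit used no pairing. A Terc count of 1 read in a library is below the 3 reads that a count of 0 allows.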

Other observations

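Bc1, the brain cytoplasmic RNA, was one of the untailed RNAs in which the library labelled CNV cp-asiNRL replicate 2 did not stand apart. It was at 50.9, 61.8 and 69.2 CPM in WT vehicle and 51.3, 38.4 and 35.7 CPM in WT cp-asiNRL retina. In CNV retina it was at 62.1, 65.6 and 42.9 CPM with vehicle and at 31.7, 35.5 and 36.2 CPM with cp-asiNRL, groups that did not overlap. Rn7s1, a 7SL row, was at 2654, 5084 and 2470 CPM in the same CNV cp-asiNRL libraries.

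Genes that varied most like the other long RNAs around the group means were Pank2 and Pigm for Malat1 (r = 0.97 and 0.96), Prr5 for Miat (r = 0.96), Rph3a for Meg3 (r = 0.97) and Cadm3 for Snhg11 (r = 0.94), over 12 libraries. Without CNV cp-asiNRL replicate 2 these r values were 0.988, 0.981, 0.968, 0.968 and 0.937. For Rn7sk the closest was Aldh9a1 (r = 0.94), with r = 0.385 without that library, and for Rpph1 it was Zfp397 (r = 0.95), with r = 0.852.

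Markers of the pigment epithelium and choroid, 6 genes of tissue next to the retina, summed to 22.1 to 29.3 CPM in WT vehicle, 13.9 to 15.6 in WT cp-asiNRL, 18.6 to 28.7 in CNV vehicle and 16.8 to 26.3 in CNV cp-asiNRL retina, and 2 of them were called lower for the shared cp-asiNRL change.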
